A study of Mus musculus with 4 samples.

Results

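The genes described here encode the nuclear subunits of mitochondrial respiratory complexes II to V, together with cytochrome c. The rule reads gene symbols and no measured value, although it was set with earlier results of these data known, and 42 of the 32285 genes in the deposited count matrices met the rule. Complex II contributes 4 of them, complex III 9, cytochrome c 1, complex IV 11 and complex V 17. The matrices describe single cells of the mouse AGM (aorta-gonad-mesonephros), where the first haematopoietic stem cells (HSCs) of the embryo arise. All embryos were C57BL/6J at E11.5, and the labels describe every library as freshly sorted CD31+ cells. CD31, encoded by Pecam1, is a surface protein of endothelial cells and of many blood cells. The sorted cells were divided by TMRM, a dye that enters mitochondria according to their membrane potential. The dim gate, MMPlow, and the bright gate, MMPhigh, are each represented by 2 libraries. The stated aim was to find the transcriptional basis on which mitochondrial activity separates HSC function. The labels do not say whether the 2 libraries of a gate came from separate embryos, pools of embryos or sorts. The p-values between the gates therefore measure only the spread between these libraries, which may be technical. Where classes were compared with the library as a block, the p-values measure only the deviations left among class sums of the same libraries. Those are not a spread between replicates.

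In the inner mitochondrial membrane, complex II passes electrons from succinate to ubiquinone, complex III passes them on to cytochrome c, and complex IV hands them to oxygen. Complexes III and IV pump protons as they do so, and complex V, the ATP synthase, uses the returning protons to make ATP. Complex II is encoded wholly in the nucleus, whereas complexes III, IV and V also hold core subunits encoded by mitochondrial DNA, so both genomes must supply their parts. Erythroid cells need mitochondria for haem synthesis before they discard them, and adult haematopoietic stem cells are known for a low reliance on oxidative phosphorylation.

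Each deposited matrix holds counts of unique molecular identifiers (UMIs), and each UMI stands for 1 captured RNA molecule read at its 3′ end. The 4 libraries held between 51800709 and 120168395 UMIs. Cells with at least 2000 UMIs, at least 1000 genes and under 25% mitochondrial UMIs were kept, and the 6% of cells with the highest doublet scores in each library were removed, which left 41619 cells. The retained cells numbered 15700 in MMPlow 1, 18428 in MMPlow 2, 4201 in MMPhigh 1 and 3290 in MMPhigh 2, from 59928, 23715, 13939 and 4288 deposited barcodes. Both MMPlow libraries thus kept more barcodes as cells than the 10000 cells that the labels give as the highest aim for a lane, and what share of these barcodes are droplets without a cell or with several cells was not tested. MMPhigh 2 stood apart in depth, with a median of 22963.5 UMIs per retained cell against 3082 to 3780 in the other libraries. A barcode shared with another library was carried by 815 retained cells. The cells were clustered without the 42 genes, without mitochondrially encoded genes and without complex I and ribosomal protein genes, and the 33 clusters were gathered into 11 classes by marker genes and called "like" a cell type. Clusters without a clear name held 17.2%, 21.9%, 9.28% and 7.39% of the cells of MMPlow 1, MMPlow 2, MMPhigh 1 and MMPhigh 2.

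The CD31 label was checked first, and its gene was low in the bright gate. Pecam1 reached 275 and 262 CPM (the UMIs of a gene scaled to a common library total) in MMPlow 1 and 2, and 25 and 23.2 CPM in MMPhigh 1 and 2. The 14 endothelial markers were all above 0 in every library, and their sum was 2901 and 2810 CPM in the MMPlow libraries against 134 and 115 CPM in the MMPhigh libraries. Endothelial-like cells numbered 5704 and 6341 in MMPlow but 11 and 9 in MMPhigh. Within classes, the log2 fold of Pecam1 in MMPhigh against MMPlow was -5.50 in mesenchymal-like and -4.69 in muscle progenitor-like cells, and both passed the threshold (edgeR). Neither is a class of blood or endothelial-like cells. The folds of the other classes are not given here, so these values do not show the size of the fall in blood classes. The libraries labelled MMPhigh thus went against their CD31+ label at the RNA level, and their cells may not all have been CD31+. Every direction between the gates given here is between libraries so labelled. The 2 gates held different kinds of cells, and a difference between sums over all cells cannot tell a change in the number of cells of a type from a change in RNA per cell.

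The levels of the 42 genes were compared first. Because each molecule is counted once at its 3′ end, CPM values were compared between genes without division by transcript length. Over all retained cells the median of the mean CPM per gene was 97.4 for complex II, 292 for complex III, 453 for complex IV and 417 for complex V, and cytochrome c (Cycs) stood at 211. The most abundant was Cox4i1, a large subunit of complex IV that spans the membrane, at 894, 870, 1068 and 771 CPM in MMPlow 1, MMPlow 2, MMPhigh 1 and MMPhigh 2. The least abundant was Sdhc, one of the membrane anchors of complex II, at 58.4, 63.2, 68.6 and 69.7 CPM in the same order. The mean of Cox4i1 was 13.9 times that of Sdhc, and the libraries of each gene differed far less than these 2 genes did. A near-identical copy of the 3′ end exists among annotated genes for 9 of the 42 genes and none of these copies is in the list of counted features.

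Within complex II the iron-sulfur subunit gene Sdhb had the highest mean of the 4 libraries, although Sdha was above it in both MMPlow libraries. Sdhb was counted at 107, 114, 145 and 140 CPM, in the library order given above. The flavoprotein gene Sdha, whose product holds the catalytic site, stood at 116, 125, 104 and 113 CPM. The second anchor gene, Sdhd, was counted at 57.2, 74.6, 89.6 and 99.5 CPM, and its libraries did not overlap between the gates. Sdha and Sdhb overlapped each other in level, as did Sdhc and Sdhd, and both anchors lay below both catalytic subunits in every library.

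Complex III spanned a ratio of 3.79 between its highest and lowest gene. The hinge protein gene Uqcrh was highest, at 436, 442, 459 and 405 CPM. The core protein gene Uqcrc1 was lowest, at 115, 93.3, 119 and 133 CPM. The Rieske iron-sulfur protein gene Uqcrfs1, at 109, 133, 151 and 149 CPM, overlapped the range of Uqcrc1. The gene for cytochrome c1, Cyc1, was a little higher at 154, 160, 192 and 184 CPM. Cycs, the mobile carrier that cytochrome c1 loads, was counted at 157, 185, 236 and 264 CPM, and its MMPlow libraries overlapped the range of Cyc1.

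In complex IV the ratio of Cox4i1 to the lowest gene was 4.30. That lowest gene was Cox7a2l, which encodes a factor of respiratory supercomplexes, at 199, 196, 244 and 199 CPM. Cox6a1 followed at 218, 279, 210 and 248 CPM, and these libraries overlapped those of Cox7a2l. The small subunit gene Cox8a was among the most abundant, at 642, 661, 657 and 743 CPM. Cox5a was counted at 386, 469, 558 and 511 CPM and Cox7a2 at 431, 429, 402 and 453 CPM.

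The highest and lowest ATP synthase genes were closer than those of complexes III and IV, with a ratio of 2.19 between the beta subunit gene Atp5b and the e subunit gene Atp5k. Atp5b, which encodes the catalytic subunit, stood at 504, 520, 581 and 621 CPM. Atp5k stood at 288, 239, 174 and 319 CPM, and here the 2 MMPhigh libraries enclosed both MMPlow libraries. Atp5g1, Atp5g2 and Atp5g3 encode identical c subunits of the membrane ring behind different import sequences. Atp5g1 was counted at 447, 456, 584 and 500 CPM, Atp5g2 at 420, 501, 556 and 495 CPM, and Atp5g3 at 275, 309, 340 and 311 CPM. Atp5g3 was the lowest of the 3 in every library, and Atp5g1 and Atp5g2 overlapped.

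**Figure D1:**
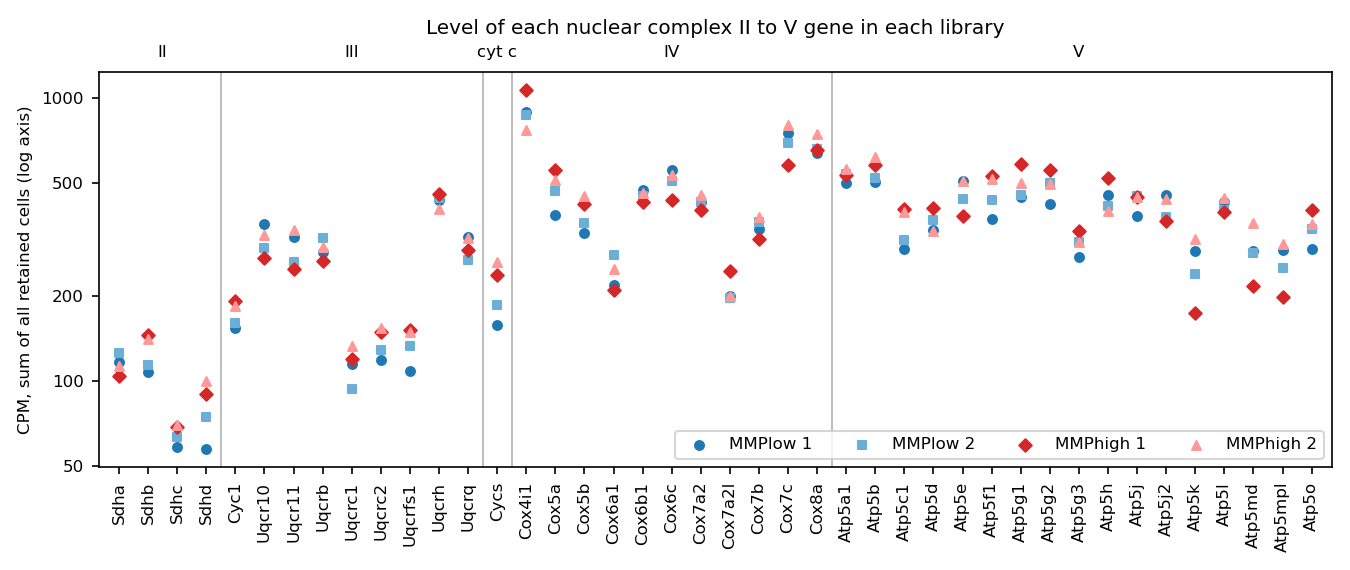
CPM over all retained cells (log axis) for each of the 42 genes, grouped by complex, with 1 point per library for MMPlow 1, MMPlow 2, MMPhigh 1 and MMPhigh 2. Complex II genes sit lowest, with a median of 97.4 CPM, and Cox4i1 sits highest, with a mean of 901 CPM.

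Together the 42 genes supplied 1.45% of all UMIs in MMPlow 1, 1.46% in MMPlow 2, 1.52% in MMPhigh 1 and 1.59% in MMPhigh 2. The classes differed more than the gates. Erythroid-like cells, whose marker list holds the globins and haem synthesis genes, gave 2.04% in MMPlow 1, 2.04% in MMPlow 2, 2.08% in MMPhigh 1 and 2.16% in MMPhigh 2, the highest share of the classes in each of the 4 libraries. Granulocyte or mast-like cells gave the lowest share in both MMPlow libraries, 1.19% and 1.30%. Haematopoietic progenitor-like (HP-like) cells gave 1.24% and 1.41% in the dim gate, with 1.42% and 1.94% in the bright gate. Endothelial-like cells, scored only in MMPlow, gave 1.44% and 1.39%. When mitochondrially encoded and globin UMIs were taken out of the total, the erythroid-like shares were 2.14%, 2.12%, 2.15% and 2.23%, and the all-cell shares were 1.51%, 1.52%, 1.58% and 1.65%.

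**Figure D2:**
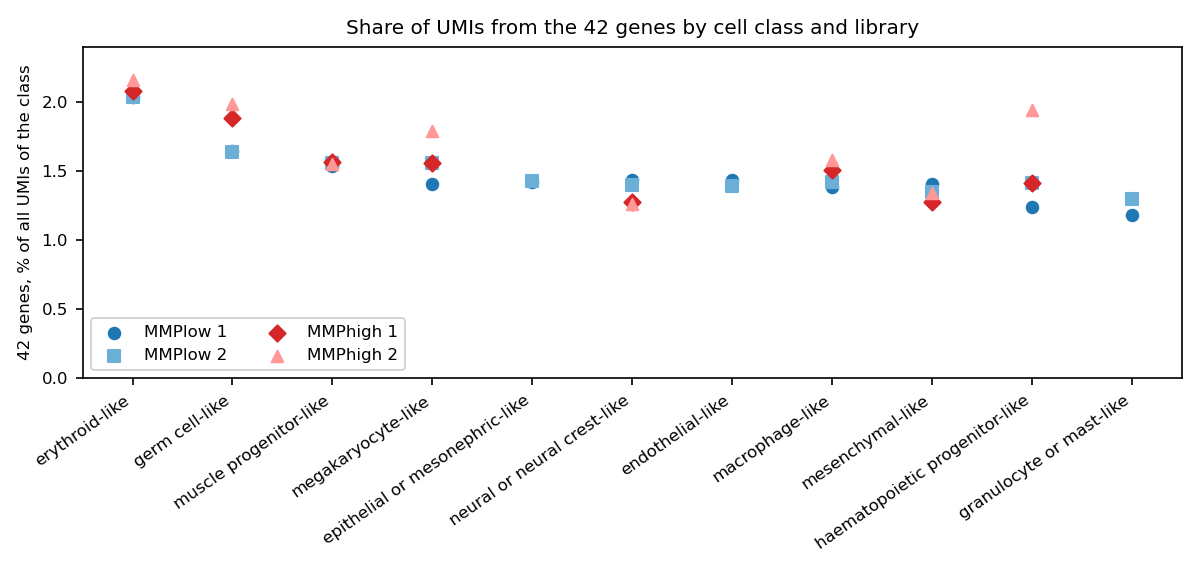
Share of all UMIs that came from the 42 genes (percent, axis from 0) for each class, with 1 point per library where the class held at least 20 cells. Erythroid-like cells lie between 2.04% and 2.16% in the 4 libraries, above the other classes.

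Erythroid-like cells held more RNA of most of the 42 genes than the mean of the other 10 classes, and of all 42 after TMM scaling. Within the 2 MMPlow libraries, edgeR's quasi-likelihood test on class sums, with the library as a block and Benjamini-Hochberg adjustment over 15806 genes, called 42 of 42 higher at an adjusted p under 0.05, while 32.7% of all genes tested were called higher. The median log2 fold of the 42 was 0.92, and that of all genes tested was -0.08. The median was 0.82 for complex II, 1.21 for complex III, 0.87 for complex IV and 0.88 for complex V, with Cycs at 1.51.

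Sdhd showed the widest gap of the 42 genes. It was counted in erythroid-like cells at 161 and 191 CPM in MMPlow 1 and 2 and at 204 and 219 CPM in MMPhigh 1 and 2. HP-like cells, the next class, held 63.5 and 101 CPM in MMPlow and 107 and 164 CPM in MMPhigh. Erythroid-like cells were the highest class in every library, and their lowest library (161) lay just under the highest HP-like library (164). The log2 fold against the other classes was 2.09 (SE 0.0873, adjusted p = 2.42e-27, edgeR). Sdhd lies at chr9:50596357-50603812 on the minus strand of GRCm38, the assembly that mm10 also names. The other 3 genes of complex II differed much less. Sdhc had a log2 fold of 0.84 and Sdhb of 0.80, both past the threshold. Sdha had 0.50 (adjusted p = 1.75e-07, edgeR), although in plain CPM its erythroid-like libraries (113 and 132 in MMPlow) were only 1.02 times the median of the other classes. The test scales each sum by trimmed mean of M values (TMM), which gave the erythroid-like sums factors of 0.763 and 0.749, so that a level equal in CPM counts as higher after scaling.

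Complex III and cytochrome c held most of the wider differences. Cycs was counted in erythroid-like cells at 314 and 355 CPM in MMPlow and 425 and 479 CPM in MMPhigh. The next class in MMPlow, muscle progenitor-like cells, held 167 and 234 CPM, with 292 and 259 CPM in MMPhigh. No library of the muscle progenitor-like class reached the lowest erythroid-like one. Other classes did so in MMPhigh: HP-like cells with 353 and megakaryocyte-like cells with 350 CPM in MMPhigh 2, and germ cell-like cells with 347 CPM in MMPhigh 1. These values lay below both MMPhigh erythroid-like libraries. The log2 fold of Cycs against the other classes was 1.51 (SE 0.0711, adjusted p = 2.15e-26, edgeR). Cyc1 stood at 315, 314, 339 and 324 CPM in erythroid-like cells, about the same in every library, with a log2 fold of 1.46. The small subunit genes Uqcr11 and Uqcr10 had log2 folds of 1.49 and 1.47, and Uqcrq of 1.37. Uqcrc1 rose by 1.21, Uqcrfs1 by 1.11, Uqcrh by 1.02 and the second core protein gene, Uqcrc2, by 1.01 on the log2 scale. Uqcrb, which encodes another small subunit, was the lowest of the complex at 0.61.

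Within complex IV the gain was uneven. Cox8a was counted at 1237 and 1237 CPM in the MMPlow and 1022 and 1151 CPM in the MMPhigh erythroid-like sums. Its log2 fold was 1.34 (SE 0.0625, adjusted p = 8.01e-26, edgeR). Cox5b followed at 1.24, Cox7a2 at 1.06 and Cox6a1 at 0.89. Cox5a stood at 0.71 and Cox7a2l at 0.70. Cox4i1 had the smallest log2 fold of all 42 genes, 0.48 (adjusted p = 1.19e-10, edgeR). In plain CPM, erythroid-like cells held 930 and 896 CPM of Cox4i1 in MMPlow, below the 1349 and 1213 CPM of germ cell-like cells. So after TMM scaling the most abundant gene over all cells gained least in the erythroid-like class. In plain CPM, the ratio to the median of the other classes was smaller for Sdha (1.02) than for Cox4i1 (1.04).

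The c subunit genes of the ATP synthase differed among themselves. Atp5g1 was counted at 985 and 971 CPM in MMPlow and 1092 and 938 CPM in MMPhigh erythroid-like cells. Megakaryocyte-like cells came next in MMPlow with 493 and 567 CPM, and held 730 and 694 CPM in MMPhigh, without overlap with erythroid-like cells. In MMPhigh 1 and 2, germ cell-like cells held 992 and 755 CPM, and the 992 lay above the lowest erythroid-like library (938). The log2 fold of Atp5g1 was 1.65 (SE 0.0598, adjusted p = 4.26e-33, edgeR). The log2 folds of Atp5g3 and Atp5g2, which encode the same mature c subunit, were 0.99 and 0.87. The other ATP synthase genes lay between 0.67 for Atp5h (subunit d) and 1.10 for Atp5md, with Atp5b at 0.69, Atp5a1 at 0.95 and Atp5mpl at 1.09.

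In CPM, without the scaling, erythroid-like cells ranked first among the 11 classes for 30 of the 42 genes, and for 22 of 42 they were above every other class in both MMPlow libraries. Germ cell-like cells ranked first for 7 genes, muscle progenitor-like cells for 3 and neural or neural crest-like cells for 2. Such ranks were not counted over all genes, so they do not set the 42 apart from other genes. Scaling by library totals alone called 40 of 42 higher, with medians of 0.47 for the 42 genes and -0.51 for all genes. In the 2 MMPhigh libraries 40 of 42 were higher (27.2% of all genes), and their median was 0.64, where that of all genes was -0.12. The median of the 42 thus stood between 0.76 and 1.00 above that of all genes under each of these choices. The other classes were fewer in MMPhigh than in MMPlow. Endothelial-like, epithelial or mesonephric-like and granulocyte or mast-like cells held under 20 cells in each MMPhigh library and did not enter.

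Erythroid-like cells were also deeper, with median UMIs per cell of 10578 and 12982 in MMPlow 1 and 2 against 3082 and 3639 over all cells. Malat1, a nuclear RNA, was lower in the class, with a log2 fold of -1.15 in the same fit (adjusted p = 7.97e-23, edgeR). In cells of 5000 to 10000 UMIs it gave 0.314% and 0.342% of the UMIs of erythroid-like cells and 0.717% and 0.719% of those of all cells in MMPlow 1 and 2, and its part in the result was not tested. Within cells of 5000 to 10000 UMIs, the 42 genes gave 1.94% and 1.86% of the UMIs of erythroid-like cells and 1.62% and 1.54% of those of all cells in MMPlow 1 and 2. At 2000 to 3000 UMIs in MMPlow 1 the shares were 1.45%, from 25 erythroid-like cells, and 1.31%. At 10000 to 20000 UMIs in MMPlow 2, erythroid-like cells gave 2.11%, HP-like 1.90%, megakaryocyte-like 1.88% and macrophage-like cells 1.82%. With every cell thinned to 2000 UMIs, 42 of 42 were still called higher, and their median log2 fold was 0.69, where that of all genes was -0.16. Thinning keeps the proportions within a cell, so it does not match cells for their depth.

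The mitochondrially encoded partners did not move with them. Of 13 mitochondrially encoded subunit genes, 0 were called higher and 12 lower in erythroid-like cells in the same fit, with a median log2 fold of -0.60. The cytochrome b gene mt-Cytb fell by 0.88, mt-Co3 by 0.85, mt-Nd6 by 0.82, mt-Nd4 by 0.69 and mt-Co2 by 0.64. The gene for mt-Nd3 had a log2 fold of -0.06 and did not pass the threshold. Mitochondrially encoded complex IV genes supplied 0.858% and 0.859% of erythroid-like UMIs in MMPlow and 1.17% and 1.28% in MMPhigh, against 1.68% and 1.79% of all UMIs in MMPlow 1 and 2. Under library totals 13 of 13 were lower, whereas in the MMPhigh libraries 4 of 13 were called lower (24.9% of all genes).

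Other genes of the pathway were counted in the same fit, in which 32.7% of all genes were higher and 25% lower. Of 36 assembly factors of complexes II to V that were tested, 33 were higher in erythroid-like cells and 2 lower, with a median log2 fold of 1.01. The copper chaperone gene Cox17 was among the highest at 1.96, followed by the complex III factor gene Lyrm7 at 1.74 and Atpif1, the gene of the ATP synthase inhibitor, at 1.52. Of 15 regulators of nuclear respiratory genes, 9 were higher and 1 lower, led by Myc at 2.67, the coactivator gene Ppargc1b at 1.66 and Tfam, which encodes the packaging factor of mitochondrial DNA, at 1.49. Of 10 tissue isoforms tested, 4 were higher and 0 lower, so their share of higher calls was near that of all genes.

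**Figure D3:**
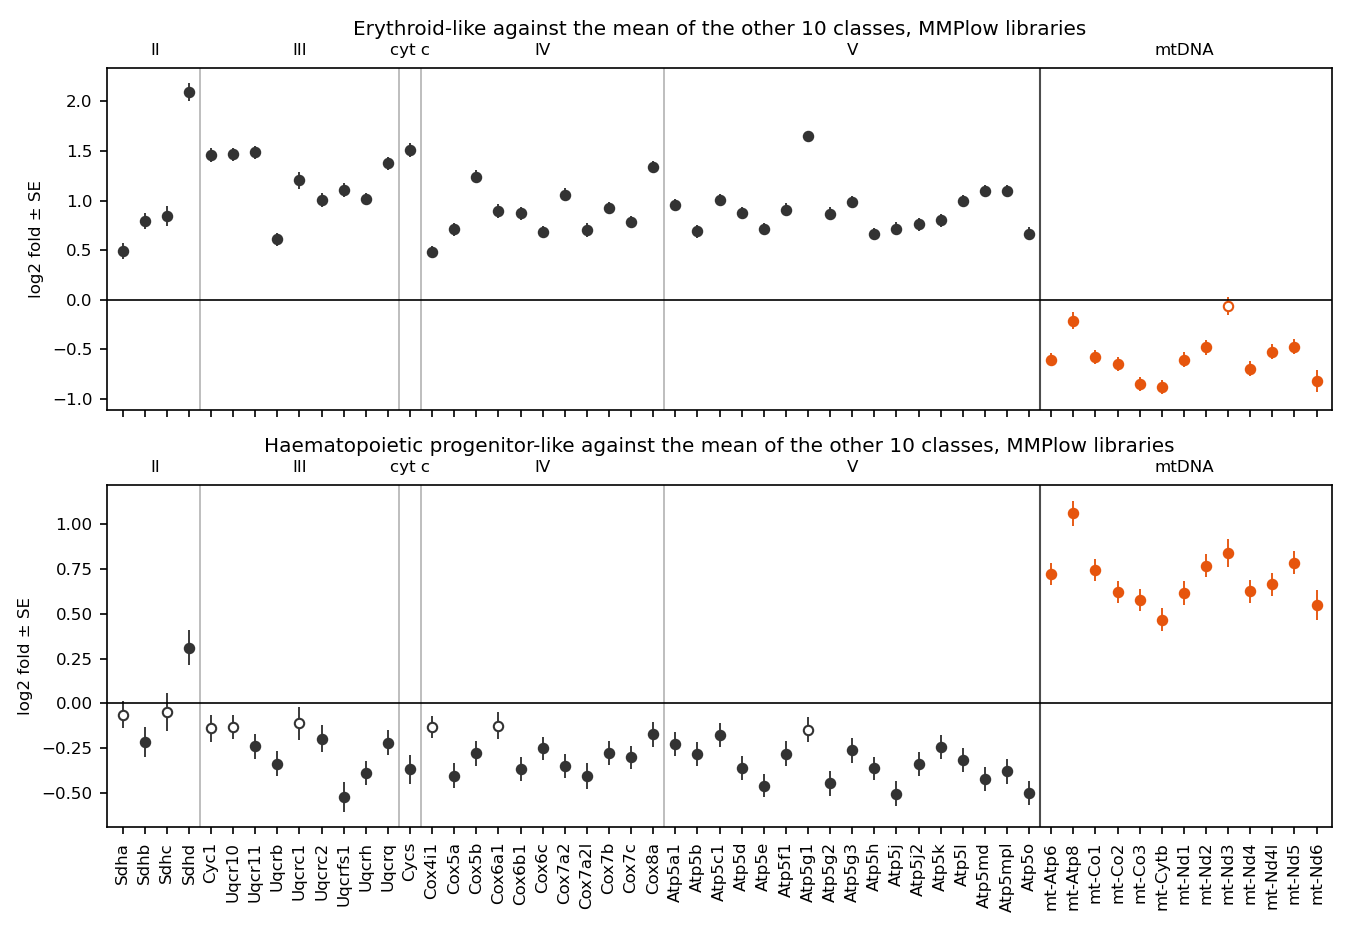
Log2 fold with its SE for each of the 42 nuclear genes by complex and for the 13 mitochondrially encoded genes (orange), in erythroid-like (upper) and HP-like cells (lower), each against the mean of the other 10 classes in the MMPlow libraries. Filled points passed an adjusted p of 0.05 (edgeR). All 42 nuclear genes lie above 0 in the upper panel, and 33 are called lower in the lower panel, where the 13 mitochondrially encoded genes are called higher.

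Because the 42 genes rose together in erythroid-like cells, their promoters were searched for the letters of 4 motifs known from nuclear respiratory genes: GCGCA, any base and GCGC for NRF1, CCGGAAGT for the ETS family that includes GABPA, AA, any base and ATGGCGG for YY1, and GGGGCGGGG for SP1. Promoters were taken from RefSeq (GRCm38.p6) as the 250 bases before each start, on both strands, and 33 of the 42 genes had an entry. Atp5a1, Atp5mpl, Cox4i1, Cox6c, Cyc1, Sdhc, Uqcrb, Uqcrc2 and Uqcrq had none. Counts are of genes, and Atp5c1, Atp5d and Atp5j had more than 1 start and so more bases searched. The NRF1 letters were in promoters of 7 of 33 genes (21.2%), against 5.84% of 17492 genes. The ETS letters were in 3 (9.09% against 4.26%), the YY1 letters in 1 (3.03% against 0.812%) and the SP1 letters in 4 (12.1% against 15.8%). At least 1 of the 4 was in promoters of 14 genes (42.4% against 23.8%). The NRF1 letters of Atp5c1 and the YY1 letters of Atp5j lay before a start inside the annotated gene. The bases before the outer start of each of these genes held no match. A match is a string of letters, not a shown binding site, and the NRF1 count includes Sdhd, the gene with the widest erythroid-like gap, 79 bases before its start.

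The stretches below show the motif matches in capitals, 5′ to 3′ on the strand of the gene. They were chosen to show 1 promoter with repeated NRF1 letters, 1 complex II promoter, and 1 promoter each for the ETS, YY1 and SP1 letters, with Atp5h shown because its promoter holds NRF1 letters in a complex V gene.
The Cox6a1 stretch (chr5:115348982-115349129, minus strand) holds the NRF1 letters 162 and 117 bases before the start.
Cox6a1: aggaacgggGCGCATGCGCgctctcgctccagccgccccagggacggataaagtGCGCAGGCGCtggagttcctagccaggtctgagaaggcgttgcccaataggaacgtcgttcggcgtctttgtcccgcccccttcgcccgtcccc
The Sdha stretch (chr13:74350281-74350308, minus strand) holds 1 of the 3 NRF1 matches of that promoter, 55 bases before the start.
Sdha: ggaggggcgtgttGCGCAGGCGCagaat
The Atp5h stretch (chr11:115419963-115420127, minus strand) holds the NRF1 letters 141 bases before the start.
Atp5h: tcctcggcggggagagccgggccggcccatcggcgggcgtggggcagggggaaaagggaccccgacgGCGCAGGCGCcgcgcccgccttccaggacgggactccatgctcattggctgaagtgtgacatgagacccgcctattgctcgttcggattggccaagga
The Uqcr11 stretch (chr10:80406831-80407071, minus strand) holds the ETS letters 66 bases before the start.
Uqcr11: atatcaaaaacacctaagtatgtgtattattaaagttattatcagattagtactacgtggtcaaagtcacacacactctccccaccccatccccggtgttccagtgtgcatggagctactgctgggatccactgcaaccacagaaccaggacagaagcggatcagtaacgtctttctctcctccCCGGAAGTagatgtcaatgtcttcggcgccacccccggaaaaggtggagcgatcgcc
The Atp5j stretch (chr16:84835024-84835123, minus strand) holds the YY1 letters 88 bases before a start that lies inside the annotated gene. No match lay before its outer start.
Atp5j: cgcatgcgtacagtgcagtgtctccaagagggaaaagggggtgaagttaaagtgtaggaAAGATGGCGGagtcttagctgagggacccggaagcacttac
The Atp5b stretch (chr10:128083057-128083272, plus strand) holds the SP1 letters on the opposite strand, 47 bases before the start.
Atp5b: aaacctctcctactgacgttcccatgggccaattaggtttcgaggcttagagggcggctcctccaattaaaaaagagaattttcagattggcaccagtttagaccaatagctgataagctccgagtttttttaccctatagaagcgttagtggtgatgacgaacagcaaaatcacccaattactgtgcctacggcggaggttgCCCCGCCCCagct
In erythroid-like cells Cox6a1 rose by 0.89, Sdha by 0.50, Atp5h by 0.67, Uqcr11 by 1.49, Atp5j by 0.72 and Atp5b by 0.69, so genes with such letters lay on both sides of the 0.92 median of the 42.

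In class sums of the dim gate, HP-like cells, named from markers such as Runx1, Myb and Kit, were low in the nuclear subunit genes and high in the mitochondrially encoded ones. The class depended on the clustering. At the coarser Leiden resolution of 0.5 no cluster was named HP-like: of the HP-like cells of MMPlow 1 and 2, 61.5% and 53.1% then lay in clusters named erythroid-like and 38.0% and 46.2% in the one named granulocyte or mast-like. At resolution 2, 72.2% and 64.7% stayed HP-like and most others were unnamed. Against the other 10 classes in MMPlow, 33 of 42 nuclear genes were lower and 1 was higher (edgeR), while 18.7% of all genes tested were lower and 25.1% higher. The median log2 fold was -0.28, against 0.05 for all genes. TMM gave the HP-like sums factors of 1.11 and 1.07, which lower every fold, and under library totals 20 of 42 were lower and 1 higher, with medians of -0.15 and 0.19 for all genes. By complex, 1 of 4 genes of complex II, 6 of 9 of complex III, Cycs, 9 of 11 of complex IV and 16 of 17 of complex V were lower.

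Uqcrfs1, the Rieske protein gene, fell most. It was counted in HP-like cells at 80.4 and 112 CPM in MMPlow 1 and 2 and at 123 and 159 CPM in MMPhigh 1 and 2. HP-like cells were the lowest class by the mean of the MMPlow libraries, although germ cell-like cells lay lower in MMPlow 2, at 99.2 CPM. Its log2 fold in MMPlow was -0.52 (SE 0.0817, adjusted p = 2.44e-07, edgeR). Atp5j (coupling factor 6) fell by 0.50, with 275 and 374 CPM in the MMPlow and 376 and 544 CPM in the MMPhigh HP-like sums. Atp5o, which encodes the stalk protein OSCP, fell by 0.50 and was counted at 214, 266, 185 and 345 CPM. The MMPhigh libraries lay on both sides of the MMPlow libraries for Atp5o, whereas for Atp5j both lay above them.

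Other decreases in the dim gate were 0.46 for Atp5e (epsilon subunit), 0.45 for Atp5g2, 0.42 for Atp5md, 0.41 for Cox7a2l, 0.40 for Cox5a, 0.39 for Uqcrh, 0.38 for Atp5mpl and 0.37 for Cycs, each as a fall in log2 fold. Cox7a2, Atp5b, Atp5g3, Sdhb and Cox8a were also lower, by between 0.17 and 0.35. The log2 folds of Atp5g1 (-0.15), Cyc1 (-0.14), Cox4i1 (-0.13), Uqcr10 (-0.13), Uqcrc1 (-0.11), Sdha (-0.06) and Sdhc (-0.05) did not pass, nor did that of Cox6a1 (-0.12). Sdhd was the exception: it was higher by 0.31 (SE 0.0985, adjusted p = 0.00775, edgeR), and in CPM only erythroid-like cells held more of it.

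All 13 mitochondrially encoded genes were higher in HP-like cells of MMPlow, with a median log2 fold of 0.67. The highest were mt-Atp8 at 1.06, mt-Nd3 at 0.84, mt-Nd5 at 0.79, mt-Nd2 at 0.77 and mt-Co1 at 0.74. Mitochondrially encoded complex IV genes supplied 3.03% and 2.71% of the UMIs of MMPlow HP-like cells and 3.24% and 1.86% of those of MMPhigh 1 and 2. Of 36 assembly factors 10 were higher and 6 lower, close to the 25.1% and 18.7% of all genes in this fit. Of 15 regulators 7 were higher and 1 lower, among them Ppargc1b at 1.97 and Myc at 1.12.

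Few of these calls were made in the bright gate, and whether the pattern itself differs between the gates was not tested. In the MMPhigh libraries, where HP-like cells numbered 50 and 95 against 1690 and 1594 in MMPlow, 1 of the 42 genes was lower and 1 higher (15.1% and 16.4% of all genes), and 7 of 13 mitochondrially encoded genes were higher. The medians there were -0.08 for the 42 genes and -0.08 for all genes. The other classes in that comparison were also fewer than in MMPlow. Over all 4 libraries 14 of 42 were lower and 1 higher (21.0% and 24.2% of all genes). Clusters 0 and 10 held most HP-like cells of MMPlow and mostly cluster 10 those of MMPhigh.

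Endothelial-like cells are the lineage from which AGM progenitors emerge, and a direct comparison of HP-like with endothelial-like cells in MMPlow was added after the data had been seen. It called 26 of 42 genes lower and 1 higher in HP-like cells, beside 29.7% of all genes lower and 28.6% higher. Atp5o showed the widest difference. It was counted at 302 and 359 CPM in endothelial-like and 214 and 266 CPM in HP-like cells, which did not overlap, with a log2 fold of -0.62. Atp5j fell by 0.54, Cox7a2l, Atp5h and Uqcrc1 by 0.51 each, Uqcrfs1 by 0.48, Atp5g2 by 0.46, Atp5e by 0.45, Sdhb by 0.44 and Cox6b1 by 0.43. Sdhd was again the single higher gene, at 50.4 and 61.9 CPM in endothelial-like cells against 63.5 and 101 CPM, with a log2 fold of 0.39 (adjusted p = 0.00144, edgeR). All 13 mitochondrially encoded genes were higher, with a median of 0.71. Scaling by library totals called 13 of the 42 lower and 4 higher. The shares of all genes under that scaling are not given here, so these counts do not set the 42 apart from other genes.

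Granulocyte or mast-like cells were also low in nuclear subunits: 22 of 42 genes were lower and 0 higher in MMPlow, beside 10.1% of all genes lower and 13.8% higher. Sdhb fell most, by 0.91 on the log2 scale. It was counted at 51.3 and 60.6 CPM in granulocyte or mast-like cells, under the 61.0 to 139 CPM of the other 10 classes. Cox6a1 fell by 0.61, Atp5d (delta subunit) by 0.57, Cox7b by 0.49, Atp5md by 0.48 and Uqcrh by 0.45. Atp5g3, Atp5g1 and Cyc1 fell by 0.44 each and Atp5o by 0.37. All 42 log2 folds were below 0, and 12 of 13 mitochondrially encoded genes were higher. This class, like HP-like cells, thus paired low nuclear with high mitochondrially encoded counts.

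Among the other classes, calls went in both directions. In muscle progenitor-like cells 13 of 42 genes were higher and 1 lower (20.1% and 11.4% of all genes), while the 13 mitochondrially encoded genes were lower. Atp5o led at 0.52, with 357 and 472 CPM in MMPlow 1 and 2. Sdhb (0.48), Sdhc (0.46), Atp5md (0.40), Atp5e (0.33), Cox7a2l (0.30), Atp5j (0.28), Cycs (0.28), Atp5g2 (0.25) and Atp5h (0.23) followed. In neural or neural crest-like cells 11 were higher and 8 lower (28.4% and 19.2%), so both shares of calls were near those of all genes. Sdhc (0.56), Cox7a2l (0.44), Sdhb (0.30), Uqcrfs1 (0.27), Atp5o (0.24) and Atp5md (0.23) rose, whereas Sdha (-0.40), Uqcr10 (-0.34), Uqcrb (-0.29) and Atp5g1 (-0.29) fell. Within complex II an anchor and the iron-sulfur subunit were thus called higher and the flavoprotein lower. In the MMPhigh libraries neural or neural crest-like cells had 0 higher and 32 lower, beside 37.7% of all genes higher and 28.5% lower. Muscle progenitor-like cells had 0 higher and 8 lower there (22.8% and 17.0%), so their share of lower calls was near that of all genes. The MMPhigh counts are against fewer other classes, without endothelial-like, epithelial or mesonephric-like and granulocyte or mast-like cells, so they are not like the MMPlow counts. Whether either class differs between the gates in these calls was not tested. Under library totals neural or neural crest-like cells had 7 higher and 11 lower in MMPlow, and the shares of all genes are not given for that scaling.

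Among blood classes, megakaryocyte-like cells had 8 genes higher and 2 lower (20.9% and 17.5%), so the share of higher calls was near that of all genes. Cox6a1 (0.36), Cyc1 (0.34), Atp5g1 (0.32), Atp5a1 (0.31), Uqcrb (0.27), Cox5b (0.25), Cox8a (0.24) and Cycs (0.20) rose, and Uqcrfs1 and Cox7a2l fell by 0.21 each. The calls were 2 higher and 1 lower in the MMPhigh libraries (16% and 14.1%). Macrophage-like cells had 0 higher and 6 lower (23.6% and 18.6%), namely Cyc1 (-0.28), Uqcrh (-0.23), Atp5o (-0.23), Cox7a2 (-0.22), Atp5md (-0.21) and Cycs (-0.19). In the MMPhigh libraries 19 of the 42 were higher in macrophage-like cells and 0 lower (31.6% and 18.9% of all genes). For both classes the MMPhigh counts are against fewer other classes than the MMPlow counts.

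Endothelial-like cells were close to the mean of the other classes, with 5 higher and 5 lower (25.7% and 17.5%). Uqcrc1 was the highest at 0.45 (adjusted p = 2.53e-06, edgeR), with 125 and 102 CPM, and of the other classes erythroid-like cells alone held more. Sdhb (0.26), Atp5h (0.20), Atp5o (0.18) and Cox7a2l (0.16) were also higher, and Cox8a (-0.31), Uqcr11 (-0.27), Cyc1 (-0.20), Atp5g1 (-0.19) and Cox7c (-0.17) lower. In mesenchymal-like cells 18 were lower and 3 higher (17.1% and 29.9%). Cox5a fell by 0.33, Atp5g1 and Uqcr11 by 0.31, Cox8a by 0.30, Uqcrb by 0.28, Cyc1 by 0.27, Atp5b by 0.26, and Cox4i1 and Uqcrq by 0.25, while Sdhb rose by 0.25.

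In epithelial or mesonephric-like cells 10 genes were lower and 0 higher (8.67% and 18.3%). Cycs fell by 0.50, with 134 and 133 CPM, the lowest of the 11 classes by the mean of the MMPlow libraries. Cox6a1 and Atp5g1 fell by 0.30, Cox8a by 0.28, Cox5a and Cox7a2 by 0.26, Uqcr11 by 0.25, Atp5l (subunit g) and Cox4i1 by 0.23 and Cox7c by 0.22. Under library totals 1 was lower.

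Germ cell-like cells rested on 28 and 29 cells in MMPlow. There 14 of 42 genes were lower and 3 higher (6.11% and 4.98%), but the median of all genes was itself -0.41. Sdhc was counted at 10.5 and 22.9 CPM, under the 33.5 to 76.3 CPM of the other classes, and these values rest on 1 and 3 UMIs. Uqcrc1, from 3 and 6 UMIs, fell by 1.55, Sdhb by 1.06, Atp5f1 (subunit b) by 0.76, Uqcrq by 0.72, Cox7a2l and Uqcr10 by 0.65, Atp5o by 0.64, Atp5e by 0.61 and Atp5a1 by 0.54. Under library totals 2 were lower and 7 higher, so the direction of the group depended on the scaling, while Cox4i1 in plain CPM was highest in this class. Shares of all genes are not given for library totals.

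Between the gates, over all retained cells, 11 of the 42 genes were higher in MMPhigh and 0 lower, beside 27.4% of all 20367 genes higher and 26.7% lower, so the share of members called higher was at that of all genes. The median log2 fold was 0.12, against 0.01 for all genes. Cycs differed most: the 157 and 185 CPM of MMPlow lay below the 236 and 264 CPM of MMPhigh, with a log2 fold of 0.58 (SE 0.112, adjusted p = 0.00263, edgeR). Sdhd followed at 0.55 (SE 0.134, adjusted p = 0.0105, edgeR), then the gamma subunit gene Atp5c1 at 0.43, Atp5f1 at 0.41, Sdhb at 0.40, Cox5b at 0.37, Cox5a at 0.36, Uqcrfs1 at 0.35, Uqcrc2 at 0.32, Uqcrc1 at 0.31 and Cyc1 at 0.29.

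The genes that did not pass over all cells included Atp5g1 (0.30), Atp5b (0.27), Atp5g2 (0.22), Sdhc (0.22), Cox7a2l (0.20), Atp5g3 (0.19), Cox8a (0.14), Cox4i1 (0.10), Cox7a2 (0.02), Uqcrh (0.01), Cox6a1 (-0.08) and Sdha (-0.12). The share of UMIs from the 42 genes was 1.45% ± 0.00687 (SD, n = 2) for the dim gate and 1.55% ± 0.0506 (SD, n = 2) for the bright gate. The 2 MMPhigh libraries were above both MMPlow libraries, and the exact two-sided permutation test gave p = 0.33, the smallest that 2 libraries against 2 can give. The share was separated in the same way for complex II, cytochrome c, complex IV and complex V (each exact permutation p = 0.33), while complex III overlapped (exact permutation p = 0.67). Leaving out MMPlow 1 left 2 genes called, and leaving out MMPhigh 2 gave 17, of which 3 were lower.

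When every library was given the same number of cells of each class, 2 of the 42 genes were higher in MMPhigh and 0 lower (6.60% and 7.80% of all genes). Sdhb had a log2 fold of 0.39 (SE 0.0865, adjusted p = 0.0258, edgeR) and Atp5c1 of 0.39 (SE 0.0982, adjusted p = 0.0383, edgeR). Cycs, at 0.30, and Sdhd, at 0.15, no longer passed. None were called without MMPlow 1 or without MMPlow 2, 7 without MMPhigh 1 and 9 without MMPhigh 2, of which 6 were lower. Among cells of at least 5000 UMIs 0 were called, under library totals 1, and with every cell thinned to 2000 UMIs 8. Of 36 assembly factors 0 were higher and 1 lower in these sums, and of 15 regulators none passed.

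Macrophage-like cells showed the most gate differences within a class. There 22 of 42 genes were higher in MMPhigh and 0 lower, beside 17.1% of all genes higher and 15.7% lower, and the median log2 fold was 0.40. Atp5c1 was counted at 278 and 301 CPM in MMPlow and 409 and 399 CPM in MMPhigh, with a log2 fold of 0.73 (SE 0.117, adjusted p = 0.00191, edgeR). Sdhb was counted at 107 and 108 CPM in MMPlow and 143 and 148 CPM in MMPhigh, with 0.69 (SE 0.0985, adjusted p = 0.00111, edgeR). Both genes were separated between the gates without overlap. Sdhd moved from 57.6 and 66.0 to 79.7 and 90.3 CPM (log2 fold 0.71) and Atp5g2 from 404 and 514 to 626 and 571 CPM (0.63). Uqcrc1 (0.71), Cox5b (0.69), Uqcrc2 (0.57), Cox5a (0.57), Cycs (0.54), Cox4i1 (0.52) and Sdhc (0.50) also passed.

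Several other measures moved with the macrophage-like result. The summed endothelial markers were 939 and 689 CPM in macrophage-like cells of MMPlow against 114 and 111 CPM in those of MMPhigh, and 12 of 14 stress and immediate early genes were higher in MMPhigh. The median mitochondrial share was 5.79% and 6.33% in MMPlow against 4.02% and 4.57% in MMPhigh. Median depth was 2900 and 3413 UMIs per cell in MMPlow and 3812 and 23356 in MMPhigh. In macrophage-like cells of 5000 to 10000 UMIs the 42 genes gave 1.65% and 1.57% of UMIs in MMPlow and 1.30% and 1.41% in MMPhigh, and in those of 10000 to 20000 UMIs 1.81% and 1.82% against 1.33% and 1.39%, so at these depths the order of the gates was turned. Cluster 8 held most of these cells in MMPlow and clusters 5, 6 and 31 most in MMPhigh. In cluster 5 alone, with 313, 459, 738 and 159 cells, 0 of 42 genes were called, and among cells with at least 5000 UMIs 2 were, with a median log2 fold of -0.03 over the 42. Scaling by library totals, which moved the median of all genes to -0.25, called 6, and thinning every cell to 2000 UMIs left 11. The count was 4 without MMPlow 1, 14 without MMPlow 2, 30 without MMPhigh 1 and 24 without MMPhigh 2, of which 1 was lower. The part of these measures in the result was not tested.

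HP-like cells had 9 genes higher in MMPhigh and 0 lower (6.82% and 11.9% of all genes), and the median log2 fold was 0.55, where that of all genes was -0.09. Cycs was counted at 119 and 177 CPM in MMPlow and 221 and 353 CPM in MMPhigh, with a log2 fold of 1.19 (SE 0.294, adjusted p = 0.0193, edgeR). Uqcrc1 was counted at 90.8 and 85.3 CPM against 132 and 168 CPM, with 1.01 (SE 0.206, adjusted p = 0.00835, edgeR). For both genes the gates did not overlap, but the 2 MMPhigh libraries were far apart. Sdhd (0.97), Atp5b (0.94), Cox5b (0.92), Atp5g1 (0.90), Atp5c1 (0.87), Uqcrfs1 (0.79) and Uqcrc2 (0.73) also passed.

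The HP-like result rested on few bright cells. The median depth was 8540.5 and 38003 UMIs per cell in MMPhigh against 2833 and 3410 in MMPlow, and endothelial markers summed to 307 and 292 CPM against 1123 and 912 CPM. MMPhigh 1 stood apart in its median mitochondrial share, 12.7% against 3.63% in MMPhigh 2 and 7.08% in both MMPlow libraries. Of the stress and immediate early genes, 9 of 14 were higher in MMPhigh. The count was 0 without MMPhigh 2 or MMPlow 1, 4 without MMPlow 2, 40 without MMPhigh 1, 0 among cells of at least 5000 UMIs, 0 with every cell thinned to 2000 UMIs, and 3 in cluster 10 alone. What these measures contribute was not tested. Shares of UMIs from the nuclear subunit genes in HP-like cells of equal depth are not compared between the gates here. The higher calls are therefore not shown to hold at equal depth.

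Erythroid-like cells had 7 genes higher in MMPhigh and 0 lower (3.35% and 3.87% of all genes). Atp5o was counted at 335 and 360 CPM in MMPlow and 556 and 495 CPM in MMPhigh, without overlap, with a log2 fold of 0.65 (SE 0.135, adjusted p = 0.00421, edgeR). Uqcrc1 (0.54), Atp5b (0.54), Cycs (0.49), Atp5c1 (0.45), Sdhb (0.44) and Uqcrc2 (0.43) also passed. In the same comparison 4 of 13 mitochondrially encoded genes were higher, mt-Atp6 (0.74), mt-Co2 (0.65), mt-Co3 (0.62) and mt-Nd2 (0.51), and 0 lower. The median mitochondrial share was 1.79% and 1.77% in MMPlow and 2.52% and 2.90% in MMPhigh, and median depth was 10578 and 12982 against 3302 and 52376 UMIs per cell. The MMPlow cells came mostly from cluster 18 and the MMPhigh 1 cells mostly from cluster 32, endothelial markers summed to 375 and 363 CPM in MMPlow and 139 and 138 CPM in MMPhigh, and 7 of 13 stress and immediate early genes were higher, none of which was tested as a part of the result. The count was 0 without MMPlow 1, 1 without MMPlow 2 and 15 without MMPhigh 2 (3 of them lower), 0 with every cell thinned to 2000 UMIs, and 0 with clusters drawn more finely, where 74.0% and 80% of the erythroid-like cells of MMPlow 1 and 2 were left unnamed.

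In germ cell-like cells 8 genes were higher in MMPhigh and 0 lower (5.21% and 3.40%). Uqcrc1 was counted at 31.4 and 45.8 CPM in MMPlow, from 3 and 6 UMIs, and at 127 and 138 CPM in MMPhigh, from 91 and 319 UMIs, with a log2 fold of 1.90 (SE 0.408, adjusted p = 0.00222, edgeR). Cycs was counted at 115 and 168 CPM against 347 and 311 CPM (1.33), and Atp5g1 at 418 and 511 CPM against 992 and 755 CPM (1.05). Atp5c1 (0.95), Atp5o (0.92), Uqcrq (0.78), Cox5b (0.76) and Atp5b (0.76) also passed, while 7 of 13 mitochondrially encoded genes were lower. The count was 0 without MMPlow 1, 5 without MMPlow 2, 15 without MMPhigh 1 and 13 without MMPhigh 2. It was 0 with every cell thinned to 2000 UMIs. Median depth was 3121 and 3965 UMIs per cell in MMPlow and 3648 and 48665.5 in MMPhigh, the median mitochondrial share was 8.12% and 8.81% against 2.83% and 3.93%, and endothelial markers summed to 1244 and 679 CPM against 201 and 213 CPM. The part of these measures in the result was not tested.

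Megakaryocyte-like cells had 5 genes higher and 0 lower (3.48% and 6.50%). Cycs was counted at 160 and 207 CPM in MMPlow and 298 and 350 CPM in MMPhigh, with a log2 fold of 0.95 (SE 0.175, adjusted p = 0.00453, edgeR). Uqcrc1 (0.67), Atp5f1 (0.61), Uqcrc2 (0.57) and Atp5g1 (0.54) also passed. Here 8 of 13 stress and immediate early genes were higher, and endothelial markers summed to 1197 and 960 CPM against 388 and 414 CPM. Malat1, a nuclear RNA, fell by 1.04 on the log2 scale (adjusted p = 0.00418, edgeR), and the median mitochondrial share was 6.21% and 5.82% in MMPlow against 2.78% and 3.42% in MMPhigh. Median depth was 2931 and 3796.5 UMIs per cell in MMPlow and 3454.5 and 33104 in MMPhigh. What these measures contribute to the megakaryocyte-like calls was not tested. Shares at equal depth are not compared between the gates here for this class either, so its higher calls are not shown to hold at equal depth. The count was 0 without MMPlow 1, 1 without MMPhigh 2, 3 without MMPlow 2 and 12 without MMPhigh 1. It was 0 among cells of at least 5000 UMIs and 0 with every cell thinned to 2000 UMIs.

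Mesenchymal-like, neural or neural crest-like and muscle progenitor-like cells had few calls between the gates. In mesenchymal-like cells Atp5c1 alone was higher (285 and 287 against 361 and 333 CPM, log2 fold 0.34, SE 0.0963, adjusted p = 0.0253, edgeR), beside 8.68% of all genes higher and 12.7% lower, and Malat1 fell by 0.50 (adjusted p = 0.0135, edgeR). There 10 of 13 stress and immediate early genes were higher in MMPhigh, among them Fosb at 7.16, Fos at 4.93, Egr1 at 2.53 and Jun at 1.67, and endothelial markers summed to 779 and 619 CPM in MMPlow against 40.5 and 37.5 CPM in MMPhigh. Among cells of at least 5000 UMIs 0 of the 42 were higher and 6 lower. In neural or neural crest-like cells Uqcr10 alone was lower (261 and 228 against 160 and 159 CPM, log2 fold -0.56, SE 0.144, adjusted p = 0.0449, edgeR), beside 3.47% of all genes lower and 1.85% higher. Fos (4.5), Fosb (4.24) and Jun (1.01) were higher there, 3 of 12 stress and immediate early genes, and endothelial markers summed to 761 and 663 CPM against 66.5 and 18.5 CPM. Median depth in mesenchymal-like cells was 3484 and 3990 UMIs per cell in MMPlow against 15059 and 21768 in MMPhigh, and the median mitochondrial share of neural or neural crest-like cells was 2.07% and 2.09% against 3.07% in both MMPhigh libraries. Cluster 7 held 307 of 361 and 336 of 387 neural or neural crest-like cells in MMPlow but 426 of 1235 in MMPhigh 1, with 800 of 933 in MMPhigh 2, and within it alone 9 genes were lower and 0 higher. The part of these measures in both results was not tested. Shares of all genes are not given for cluster 7 alone or for cells of at least 5000 UMIs. Those counts therefore do not set the 42 apart from other genes. In muscle progenitor-like cells edgeR called none of the 42 genes (0.349% of all genes higher, 2.29% lower), with 1 at an unadjusted p under 0.05, and DESeq2 also called 0. Leaving out a single library took these counts from 0 to 11 in mesenchymal-like cells (11 without MMPhigh 2, 8 of them lower, and 0 without MMPlow 1 or MMPlow 2), from 0 to 9 in neural or neural crest-like cells (9 without MMPhigh 2, 3 without MMPhigh 1, 0 without either MMPlow library) and to 3 in muscle progenitor-like cells (without MMPhigh 2).

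Across the 8 classes with enough cells in both gates, 16 of the 42 genes had a log2 fold above 0 in 8 of 8 and 0 had one below 0 in 8 of 8, beside 10.7% and 8.11% of the 6264 genes tested in all 8. The 16 were Atp5c1 (0.33 to 0.95), Cycs (0.14 to 1.33), Sdhb (0.22 to 1.10), Uqcrc1 (0.16 to 1.90), Sdhd, Uqcrc2, Uqcrfs1, Cyc1, Cox5a, Cox5b, Atp5b, Atp5f1, Atp5g3, Atp5h, Atp5j and Atp5o, whose lowest fold was 0.00442 for Atp5j. Cox6a1 was below 0 in 7 of 8. These folds are a description, since the classes of 1 library share its preparation and depth. Among macrophage-like cells of at least 5000 UMIs, Cyc1 (-0.0485) and Uqcrfs1 (-0.0649), both of the 16, were below 0.

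The gate difference itself was tested for variation among the 8 classes in 1 model with a class by gate term and the library as a block. It passed for 24 of the 42 genes, or 5 of complex III, Cycs, 6 of complex IV, 12 of complex V and 0 of complex II, beside 24.9% of all 15600 genes tested. Atp5g1 had the lowest adjusted p (8.65e-05, edgeR), with log2 folds from -0.17 in neural or neural crest-like cells to 1.05 in germ cell-like cells. For Uqcrc1 the adjusted p was 0.0015 and for Cycs 0.00469 (edgeR). Without MMPlow 1 or MMPlow 2 none passed, without MMPhigh 1 41 did and without MMPhigh 2 34, and with every cell thinned to 2000 UMIs 1 passed.

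The share of UMIs from the 42 genes also varied with depth per cell. In cells of 2000 to 3000 UMIs the MMPlow libraries gave 1.31% and 1.32% and the MMPhigh libraries 1.88% and 1.59%, the last from 57 cells. In cells of 3000 to 5000 UMIs the values were 1.30% and 1.23% against 1.77% and 1.28%, and MMPhigh 2 lay between the MMPlow libraries. In cells of 5000 to 10000 UMIs the MMPlow libraries gave 1.62% and 1.54%, and the MMPhigh libraries 1.42% and 1.21%. In cells of 10000 to 20000 UMIs the MMPlow libraries gave 1.85% and 1.81% and the MMPhigh libraries 1.30% and 1.36%. Both MMPhigh libraries were thus above both MMPlow libraries in the shallowest bin and below them between 5000 and 20000 UMIs. Above 20000 UMIs, MMPhigh 1 gave 1.49%, MMPhigh 2 1.64% from 1927 of its 3290 cells, and MMPlow 2 1.81% from 83 cells. With cells of at least 5000 UMIs only, the shares were 1.67%, 1.64%, 1.44% and 1.59%, and 0 of 42 genes were higher and 3 lower in MMPhigh over all cells. Uqcrh was one of the 3, at a log2 fold of -0.32 (adjusted p = 0.0159, edgeR). The share of all genes called among these cells is not given here.

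**Figure D4:**
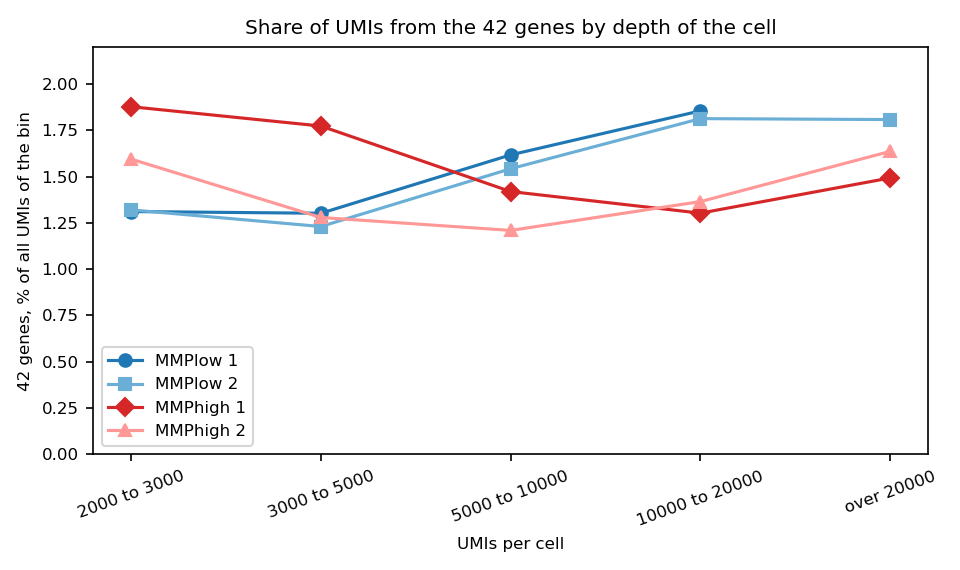
Share of UMIs from the 42 genes (percent) by UMIs per cell in bins, with 1 line per library. In the shallowest bin MMPhigh 1 and 2 (1.88% and 1.59%) lie above MMPlow 1 and 2 (1.31% and 1.32%), and in the bin of 5000 to 10000 UMIs they lie below them.

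Transcript length moved with differences between libraries, also within a gate. Over the 42 genes, the log2 ratio of MMPhigh 1 to MMPlow 1 had a Pearson r of 0.54 and a Spearman rho of 0.60 with the length of the transcript, while the ratio of MMPhigh 2 to MMPlow 2 had 0.13 and 0.06. The ratios of MMPhigh 1 to MMPlow 2 and of MMPhigh 2 to MMPlow 1 had a Pearson r of 0.46 each, with a rho of 0.53 and 0.46. Between the 2 MMPlow libraries the values were -0.42 and -0.48, and between the 2 MMPhigh libraries 0.31 and 0.38. The points are genes of the same libraries and carry no p. The 9 genes with transcripts under 500 bases, such as Uqcr11, had a median log2 ratio of -0.40 between MMPhigh 1 and MMPlow 1, against 0.23 for the 33 longer ones. Between MMPhigh 2 and MMPlow 2 the medians were 0.26 and 0.13, between MMPhigh 1 and MMPlow 2 they were -0.11 and 0.14, and between MMPhigh 2 and MMPlow 1 they were 0.07 and 0.19. The short genes thus had the lower median in 3 of the 4 pairings of a bright with a dim library.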

How the data were processed

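Single-cell RNA libraries of 4 sorted fractions (2 MMPlow, 2 MMPhigh; 10x Genomics 3′ v3 kit and lanes aimed at no more than 10000 cells, per the labels' protocols) were analysed from the count matrices that the authors deposited, which hold whole UMI counts per gene and barcode. The matrices came from Cell Ranger 7.0.1 per the file headers, whereas the submitters' processing notes give Cell Ranger 2.1.1 and build mm10. The filters on cells are given in the report. A doublet caller marked 888 cells, nearly all in 1 library, so the highest 6% of scores per library were removed instead, a choice made after the data had been seen.

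Clusters were built in scanpy 1.11.5 (2000 variable genes, 30 components, 15 neighbours, Leiden resolution 1, seed 1). Classes with at least 20 cells in the libraries compared entered tests. UMIs were summed per library, or per class and library, and tested in edgeR 4.0.16 (R 4.3.3) with TMM, filterByExpr, robust quasi-likelihood fits, two-sided tests and Benjamini-Hochberg adjustment over all genes tested, with a threshold of 0.05. The edgeR test was checked on simulated counts. DESeq2 1.42.0, other scalings, filters, thinning, other clusterings, a replicate block and leaving out each library were the alternatives. Python 3.11.15, numpy 2.4.6, scipy 1.17.1 and pandas 2.3.3 were used for values and figures.

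The 42 genes and the lists of other genes (13 mitochondrially encoded, 11 tissue isoforms, 37 assembly factors, 15 regulators, 14 stress and immediate early genes) were chosen with earlier results of these data known. Tissue isoforms and the 42 genes share Cox7a2l. By rule, 19 genes are named in any case, together with up to 10 genes past the threshold with the largest absolute log2 fold in each comparison, the highest and lowest gene of each complex, and up to 5 genes of each other list. Coordinates are those of GRCm38. Sequences of proteins were not used here.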

Additional observations from a re-analysis of the deposited data

Results flagged for a closer look

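The log2 fold of MMPhigh against MMPlow differed among the 8 classes for 24 of the 42 genes by a test of the class by gate terms together (edgeR, adjusted p under 0.05). For complex III the adjusted p was 0.000747 for Uqcrq, 0.0015 for Uqcrc1, 0.00624 for Uqcr10, 0.00955 for Uqcr11 and 0.0316 for Uqcrb. Cycs had 0.00469. For complex IV it was 0.00245 for Cox7a2, 0.00368 for Cox5b, 0.0218 for Cox8a, 0.0258 for Cox7a2l, 0.0356 for Cox4i1 and 0.0497 for Cox6b1.

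For complex V the adjusted p was 8.65e-05 for Atp5g1, 0.00182 for Atp5b, 0.00214 for Atp5mpl, 0.0069 for Atp5a1, 0.00925 for Atp5g2, 0.00932 for Atp5g3 and 0.0181 for Atp5c1. It was 0.0334 for Atp5k, 0.0376 for Atp5j2, 0.0381 for Atp5l, 0.0388 for Atp5e and 0.046 for Atp5d. No complex II gene passed. The same test passed for 24.9% of all genes, and for none of the 42 when either MMPlow library was left out.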

How the results depend on the processing

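Of 4076 values of single genes under an alternative, 3666 kept their direction and their side of the threshold, 297 lost the call, 106 gained it and 7 reversed. The counts for erythroid-like, endothelial-like and granulocyte or mast-like cells against the other classes stayed within 1.5 times under each alternative run. These class comparisons could not be tested without a library, since no residual degrees of freedom remained. Alternatives on doublet marks, shared barcodes, equal cells per cluster and the best-shared cluster were chosen after seeing the data. Where a count moved, the cause was not tested.

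Among cells of at least 5000 UMIs the calls were 3 over all cells, 0 with equal classes, 0 in HP-like, 2 in macrophage-like, 0 in megakaryocyte-like, 6 in mesenchymal-like and 2 in neural or neural crest-like cells. The difference in share of UMIs, MMPhigh minus MMPlow, became -0.138 percentage points for the 42 genes (0.0973 over all cells), 0.00183 for complex II, -0.0291 for complex III, 0.00315 for Cycs, -0.063 for complex IV and -0.0511 for complex V. The log2 folds of Cox5b (-0.0285), Cyc1 (-0.00381) and Uqcrh (-0.32) reversed over all cells, those of Atp5g1 (-0.15), Cyc1 (-0.0485) and Uqcrfs1 (-0.0649) in macrophage-like cells and that of Atp5g1 (-0.05) in megakaryocyte-like cells. With every cell thinned to 2000 UMIs the calls were 6 over all cells, 8 with equal classes, 1 for the class by gate term, 0 in erythroid-like, germ cell-like, HP-like, megakaryocyte-like and neural or neural crest-like, 11 in macrophage-like and 3 in mesenchymal-like cells. Against the other classes they were 3 in epithelial or mesonephric-like, 3 in germ cell-like and 12 in macrophage-like cells. Differences of the medians over thinned cells were 0.325 for the 42 genes, 0.025 for complex II, 0.025 for complex III, 0 for Cycs, 0.1 for complex IV and 0.15 for complex V. A looser cell filter gave 2 calls over all cells, a mitochondrial share under 10% 11 in megakaryocyte-like cells, and no doublet removal 11 in megakaryocyte-like and 2 in mesenchymal-like cells. Without shared barcodes 3 were called in megakaryocyte-like cells.

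With library totals in place of TMM the calls between the gates were 1 with equal classes, 15 for the class by gate term, 4 in erythroid-like, 5 in germ cell-like, 4 in HP-like, 6 in macrophage-like and 2 in megakaryocyte-like cells. Between classes they were 17 for HP-like against endothelial-like cells, and 1 in epithelial or mesonephric-like, 9 in germ cell-like and 21 in HP-like cells, with 10 in germ cell-like cells under RLE. No filter on low counts gave 6 with equal classes, 16 in germ cell-like, 8 in megakaryocyte-like and 3 in mesenchymal-like cells. A minimum of 10 CPM gave 4 in erythroid-like and 13 in germ cell-like cells, and DESeq2 4 in germ cell-like cells. Leiden resolution 0.5 gave 19 in erythroid-like and 2 in neural or neural crest-like cells, but 78.3% and 65.0% of the MMPlow 1 and 2 cells in that erythroid-like class are HP-like in the reported setting, so the 19 is not a count for the same class, and resolution 2 gave 0 in erythroid-like, 13 in macrophage-like, 3 in megakaryocyte-like and 0 in neural or neural crest-like cells. In the best-shared cluster alone the calls were 3 in HP-like, 0 in macrophage-like, 0 in mesenchymal-like and 9 in neural or neural crest-like cells. In the MMPhigh libraries the counts against the other classes were 2 in HP-like, 19 in macrophage-like, 3 in megakaryocyte-like, 8 in muscle progenitor-like and 32 in neural or neural crest-like cells, and in all 4 libraries 15 in HP-like, 3 in megakaryocyte-like and 32 in mesenchymal-like cells. Within MMPhigh the other classes were fewer than within MMPlow.

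With each library left out in turn, calls ranged from 2 to 17 over all cells, 0 to 9 with equal classes, 0 to 41 for the class by gate term, 0 to 15 in erythroid-like, 0 to 15 in germ cell-like, 0 to 40 in HP-like, 4 to 30 in macrophage-like, 0 to 12 in megakaryocyte-like, 0 to 11 in mesenchymal-like, 0 to 3 in muscle progenitor-like and 0 to 9 in neural or neural crest-like cells. The share difference ranged from 0.0615 to 0.133 for the 42 genes, 0.0038 to 0.00753 for complex II, -0.00157 (without MMPhigh 2) to 0.0143 for complex III, 0.00644 to 0.00925 for Cycs, 0.00646 to 0.0299 for complex IV and 0.0453 to 0.0731 for complex V. The lone library of a gate is then assumed to vary like the other gate. The replicate numbers 1 and 2 gave a correlation of 0.12 between the gates over 20367 genes, but with only 2 pairs they share a number and no stated source. With a replicate block the calls were 3 in erythroid-like, 22 in HP-like and 14 in megakaryocyte-like cells, and the block moved no other count by over 1.5 times.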

Other observations

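Some genes around complexes II to V differed more between the gates than the subunits themselves. Taco1, which encodes a translational activator of mitochondrially encoded Co1, was counted over all cells at 130 and 88.6 CPM in MMPlow and 27.3 and 29.1 CPM in MMPhigh, with a log2 fold of -1.92 (SE 0.182, adjusted p = 0.000335, edgeR). It also fell in the sums with equal classes (log2 fold -1.31, adjusted p = 0.0111, edgeR) and in macrophage-like cells (-1.85, adjusted p = 0.00623, edgeR). It passed in 5 of 8 classes, and did not in erythroid-like (-0.17, adjusted p = 0.637), muscle progenitor-like (-0.89, adjusted p = 0.589) and megakaryocyte-like cells (-1.59, adjusted p = 0.0956, edgeR). Ttc19, a complex III factor gene, had 35.9 and 31.4 CPM against 21.3 and 20.9 CPM (log2 fold -0.64, adjusted p = 0.000544, edgeR), and -0.46 with equal classes, which did not pass (adjusted p = 0.059, edgeR). Cox19, a complex IV factor gene, had 43.0 and 44.0 CPM against 72.6 and 61.3 CPM (0.66, adjusted p = 0.000874, edgeR), and 0.18 with equal classes (adjusted p = 0.305, edgeR).

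Over all cells 27.4% of all genes were higher in MMPhigh and 26.7% lower. Of the other lists, 4 of 36 assembly factors were higher in MMPhigh and 2 lower, 5 of 15 regulators were higher and 4 lower (shares near those of all genes), 5 of 9 tissue isoforms were higher and 0 lower, and 0 of 13 mitochondrially encoded genes were higher and 5 lower. Of 14 stress and immediate early genes 9 were higher and 1 lower. Cyct, the testis form of cytochrome c, was counted at 0.227 and 0.265 CPM in MMPlow and 2.09 and 2.70 CPM in MMPhigh over all cells (log2 fold 3.31, adjusted p = 1.63e-05, edgeR), and did not pass with equal classes (1.63, adjusted p = 0.171, edgeR).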
